A study of Mus musculus with 60 samples.

Results

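The genes described here are 49 mouse genes whose products fold, translocate, glycosylate and degrade proteins at the endoplasmic reticulum (ER) or carry the unfolded protein response (UPR). They were listed by name and role, with no threshold on a measured value but with earlier results of these data known, out of 55335 Ensembl genes in the count files. All 49 were counted in all 60 kidneys, and all 49 were among the 15546 genes retained because they reached 1 CPM (counts scaled by library size) in any kidney. For description they were divided by role into 12 chaperones and co-chaperones of the ER lumen, 5 protein disulfide isomerases, 9 genes of ER-associated degradation, 7 UPR sensors and factors, 8 translocon genes, 5 oligosaccharyltransferase genes and 3 signal peptidase genes.

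Secreted and membrane proteins enter the ER through the Sec61 channel, lose their signal peptide, receive N-linked glycans and fold with the help of chaperones such as BiP and of disulfide isomerases. Proteins that fail to fold are sent back to the cytosol and degraded. When unfolded proteins accumulate, the sensors IRE1, PERK and ATF6 raise chaperone and degradation genes through the transcription factors XBP1, ATF4 and cleaved ATF6. In the kidney the tubular epithelium makes and recycles large amounts of transporters and receptors through this route.

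The study compared kidneys of control mice (Bmal1lox/lox) with those of cKOt mice (Bmal1lox/lox/Pax8-rtTA/LC-1 Cre), in which doxycycline (DOX) induces deletion of the clock gene Bmal1 in the renal tubule. All mice were males on the C57BL/6J background, and both genotypes drank DOX at 2 mg/ml with sucrose at 20 mg/ml for 2 weeks from 8 weeks of age, a month before collection. Mice lived under light from zeitgeber time (ZT) 0 to ZT12 and darkness afterwards with free access to food, and 5 mice per genotype were taken at each of ZT0, ZT4, ZT8, ZT12, ZT16 and ZT20. The labels name the tissue as renal tubule, whereas the methods of the study describe RNA from half-kidneys, in which glomeruli, vessels and other cells keep Bmal1 because Pax8-rtTA acts in the tubular epithelium. The study kept 5 of the mice available per group in part for their closeness to the other replicates, so that the spread between mice may be understated here. In such bulk samples fewer cells of a type and less RNA per cell cannot be told apart.

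Counts on genes ranged from 17791420 to 20906706 per kidney. Bmal1 itself (Arntl) varied in control mice between a mean of 2.73 ± 0.83 CPM (SD, n = 5) at ZT8 and 48.4 ± 10.2 CPM at ZT0. In cKOt mice its group means stayed between 17.4 and 24.4 CPM, and its genotype difference varied with time (adjusted p = 4.86e-16, edgeR's quasi-likelihood test). The Arntl counts cover the whole gene, so that they do not measure the deleted exon alone. Markers of other cells were called in both directions, where 23.2% of all genes were lower and 26.8% higher in cKOt mice: 5 of 6 tested plasma cell markers and 4 of 5 macrophage markers were lower and 0 higher. Of the plasma cell list, 2 further markers, Mzb1 and Tnfrsf17, did not pass the filter on low counts. Plasma cell marker levels, summed per kidney, ranged from 113 to 642 CPM in the 30 control kidneys, against 66.9 to 359 CPM in the cKOt kidneys. All 4 endothelial and all 4 fibroblast markers were also called lower, as were 2 of 4 liver markers. Of 8 proximal tubule markers, all detected, 3 were higher and 4 lower. Higher and lower calls numbered 3 and 1 of 4 for the thick ascending limb, 2 and 0 of 3 for the distal convoluted tubule, 3 and 2 of 6 for the collecting duct, 1 and 0 of 4 for podocytes and 1 and 1 of 4 for injury.

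Most of the 49 genes were expressed at a lower mean level in cKOt mice. Averaged over the 6 time points, 31 members were lower, 3 were higher and 15 did not pass the test (edgeR's quasi-likelihood test with 2 factors of unwanted variation, Benjamini-Hochberg adjusted p below 0.05 over 15546 genes). The corresponding shares over all genes tested were 23.2% lower and 26.8% higher. The median log2 difference between cKOt and control mice was −0.11 for the members and 0.01 for all genes. With an added requirement of a fold change above 1.2, 10 members were lower and 0 higher, against 8.16% and 7.89% of all genes. These 10 were Hspa5, Hyou1, Dnajb9, Sdf2l1, Manf, Creld2, Derl3, Herpud1, Edem1 and Ddit3.

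**Figure D1:**
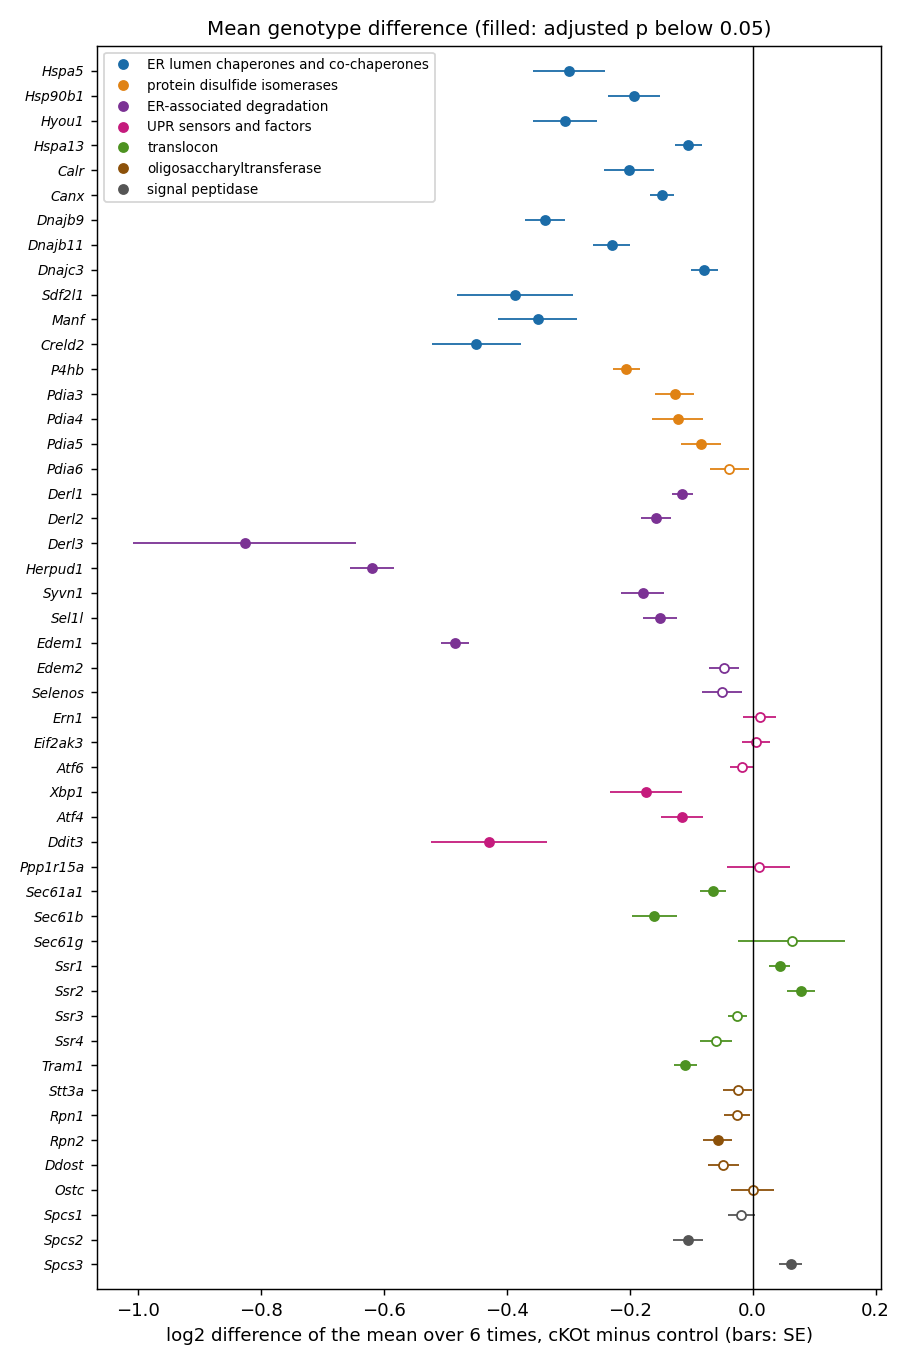
Log2 difference of the mean over 6 time points, cKOt minus control (x axis), for each of the 49 genes (rows, coloured by role), with SE bars and filled points for adjusted p below 0.05. All 12 chaperones lie to the left of 0, Derl3 and Herpud1 lie farthest to the left, and the sensors Ern1, Eif2ak3 and Atf6 lie near 0.

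Most members also varied over the day, with low values at the end of the light phase and high values in the dark. A 24 h component (cosine and sine of that period over the group means) was called in control mice for 35 members (34.8% of all genes) and in cKOt mice for 33 (30.3% of all genes). It was called in both genotypes for 29 members, against 19.1% of all genes, and in neither for 10. The peaks of the called members lay between ZT12.0 and ZT21.5 in control mice, with a median of ZT20.2, and between ZT16.4 and ZT21.6 in cKOt mice, with a median of ZT19.3. A peak from ZT16 to ZT22 was found for 34 members in control mice and 33 in cKOt mice, whereas 12.4% and 11.9% of all genes were called with a peak in those hours. These hours span the called members' own peaks, except that of Herpud1 in control mice, so that this contrast is no independent finding. Over the whole dark phase, ZT12 to ZT24, the counts were also 34 and 33 members, and the shares of all genes were 18.3% and 15.2%. Of the 49 members, 28 had their lowest group mean at ZT12 in each genotype. The highest mean fell at ZT16 for 30 members in control and 34 in cKOt mice. The shares of all genes with such lowest and highest times were not computed.

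**Figure D2:**
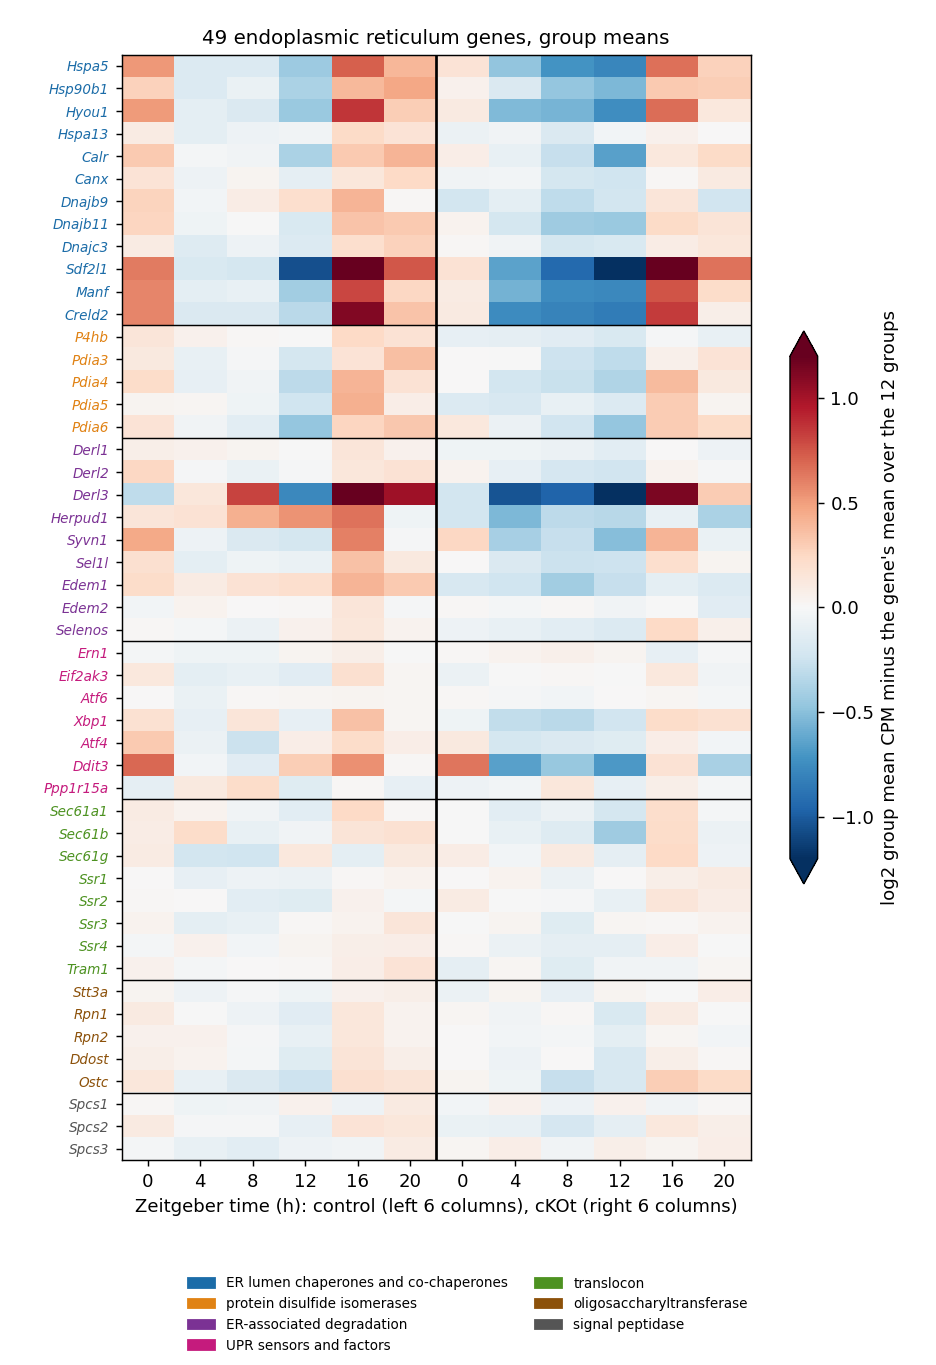
Group means of the 49 genes (rows, grouped by role) at 6 zeitgeber times in control (left) and cKOt mice (right), n = 5 per column, as log2 CPM minus the gene's mean over the 12 groups. Most chaperone rows change from blue at ZT12 to red at ZT16 in both genotypes, but not that of Dnajb9 in control mice. Sdf2l1 and Derl3 show the deepest colours, and most rows of translocon, oligosaccharyltransferase and signal peptidase genes stay pale.

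The 12 chaperones were all lower in cKOt mice (23.2% of all genes) and all had a 24 h component in both genotypes (19.1% of all genes). Their median log2 difference was −0.26, their median 24 h amplitude was 0.70 log2 units from peak to trough in control and 0.81 in cKOt mice. Over all genes the medians of these amplitudes were 0.20 and 0.19. BiP (Hspa5), the main HSP70 chaperone of the ER lumen and the regulator that holds the UPR sensors inactive, stood in control mice at 332, 361, 427, 445 and 579 CPM at ZT12 and at 821, 902, 910, 918 and 1196 CPM at ZT16. In cKOt mice it stood at 310, 332, 334, 344 and 361 CPM at ZT12 and at 691, 883, 905, 1000 and 1112 CPM at ZT16. Within each genotype the mice of these times did not overlap, and at both times the genotypes overlapped with each other. The highest Hspa5 group mean was 2.21 times the lowest in control mice and 2.73 times the lowest in cKOt mice, and the 24 h amplitude was 0.96 ± 0.12 (SE) and 1.38 ± 0.12 log2 units, respectively (adjusted p = 2.33e-08 and 2.27e-12). The 24 h component of Hspa5, tested for amplitude and peak time together, was not called different between genotypes (adjusted p = 0.229). The mean over the day was lower in cKOt mice by −0.30 ± 0.06 log2 units (SE, adjusted p = 2.33e-05).

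The promoter of Hspa5 holds the textbook ER stress response element (ERSE), which is bound by NF-Y at CCAAT and by ATF6 or XBP1 at CCACG. RefSeq windows from 250 bases before to 50 bases after the start (GRCm38.p6) were available for 39 of the 49 members and were searched on both strands for CCAAT and CCACG separated by 9 bases. It was found in 9 of the 39 members (23.1%): Hspa5, Hsp90b1, Calr, Canx, Dnajc3 and Creld2 among the chaperones, Pdia6 among the isomerases, and Derl3 and Syvn1 in degradation. Among all 27025 genes with such windows it was found in 37 (0.137%), and several members are known ERSE genes, so that the share is no independent finding. Stretches around the element are shown for 4 members that vary in amplitude, and for Herpud1, which holds the related ERSE-II (ATTGG, any base, then CCACG). They are written 5′ to 3′ on the gene's strand, with capitals for the CCAAT and CCACG boxes, or their reverse complements ATTGG and CGTGG, that make up a matched element. Further CCAAT boxes in these stretches that are part of no match are in lower case. The stretches lie at chr2:34772020-34772048 (plus strand, Hspa5), chr10:86705518-86705671 (minus strand, Hsp90b1), chr15:88819505-88819553 (plus strand, Creld2), chr12:17266476-17266524 (plus strand, Pdia6) and chr8:94386362-94386402 (plus strand, Herpud1). The Hspa5 stretch is upstream of the RefSeq start but within an annotated exon of a GENCODE vM21 transcript that begins earlier, and the other 4 lie outside annotated exons.
Hspa5: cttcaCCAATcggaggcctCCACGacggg
Hsp90b1: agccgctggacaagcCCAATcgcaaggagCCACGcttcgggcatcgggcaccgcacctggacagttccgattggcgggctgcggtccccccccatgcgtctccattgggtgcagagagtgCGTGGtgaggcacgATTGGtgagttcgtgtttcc
Creld2: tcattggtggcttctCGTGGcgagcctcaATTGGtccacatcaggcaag
Pdia6: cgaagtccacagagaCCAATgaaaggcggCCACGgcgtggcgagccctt
Herpud1: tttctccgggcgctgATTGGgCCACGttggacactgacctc

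The 9 members with an ERSE had a 24 h component in both genotypes in 9 of 9 cases, with amplitudes of 0.29 to 1.09 log2 units in control and 0.33 to 2.08 in cKOt mice. Of the 30 members with a window but no ERSE, 14 were called in both genotypes, and these 30 included Sdf2l1, the member of largest amplitude. Over all genes 19.1% were called in both. Chaperones with a window were called in both genotypes in 6 of 6 cases with an ERSE and in 3 of 3 without. Their median log2 differences were −0.20 with an ERSE and −0.34 without. Role and element are therefore not separated by these counts, and a link to the element was not tested. Other motifs were searched on both strands as well. The E-box CACGTG, which CLOCK and BMAL1 bind, was found in 5 of 39 members (12.8%; Selenos, Calr, Derl3, Dnajb9 and Ssr1) against 8.09% of all genes and 11.4% of the 11415 retained genes with a window. ERSE-II was found in Herpud1 and, after the start, in Dnajb11 (5.13% of members and 0.0444% of all genes). The ATF4-type motif TGATGNAA was found in Herpud1 (2.56% of members and 4.51% of all genes), and the UPR element TGACGTGG was found in 0 of 39 members and 0.714% of all genes. None of these ERSE, ERSE-II, E-box and ATF4-type sites overlapped each other, and a match describes letters only.

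Sdf2l1, a co-chaperone in the complex of BiP with ER J-domain proteins, showed the largest 24 h amplitude of the 49 members. Its 5 control values were 2.08, 2.70, 2.92, 3.31 and 4.36 CPM at ZT12 and 9.18, 12.6, 15.2, 17.3 and 22.2 CPM at ZT16. In cKOt mice they were 1.32, 1.54, 1.98, 2.38 and 2.6 CPM at ZT12 and 9.74, 15.0, 15.8, 17.8 and 19.4 CPM at ZT16. The times did not overlap in either genotype, and the highest group mean was 4.98 times the lowest in control and 7.91 times in cKOt mice. The amplitude was 1.67 ± 0.18 and 2.31 ± 0.19 log2 units (SE, adjusted p = 7.44e-10 and 5.13e-13), and the mean difference was −0.39 ± 0.09 (adjusted p = 4.92e-04).

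Creld2, a secreted and ER-resident disulfide isomerase-like protein, had the largest mean difference among the chaperones, −0.45 ± 0.07 log2 units (SE, adjusted p = 5.97e-07). Its control mean was 23.4 ± 6.6 CPM (SD, n = 5) at ZT12 and 63.5 ± 10.6 CPM at ZT16, and its cKOt mean was 16.4 ± 2.9 and 52.6 ± 12.3 CPM. The genotypes overlapped at every time. Hyou1, the ER nucleotide exchange factor of the HSP110 type, had 24 h amplitudes of 0.94 and 1.15 log2 units and a mean difference of −0.31 ± 0.05. Hsp90b1 (GRP94), the HSP90 of the ER, and the lectin chaperone Calr had amplitudes of 0.74 and 0.66 in control and 0.91 and 0.72 in cKOt mice, with mean differences of −0.19 ± 0.04 and −0.20 ± 0.04. The J-domain proteins Dnajb11 and Dnajc3 had control amplitudes of 0.48 and 0.42, and the smallest chaperone amplitudes in control mice were those of the lectin chaperone Canx (0.29), Hspa13 (0.30) and Dnajb9 (0.21). The mean difference of Dnajb9 was −0.34 ± 0.03 (SE, adjusted p = 8.77e-13 by edgeR). Its genotypes did not overlap at ZT8, ZT12 and ZT16, and those of Canx did not overlap at ZT8.

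Manf, a secreted ER stress protein, was the only chaperone whose 24 h component was called different between genotypes (adjusted p = 0.0396), and this call did not hold in 10 of 15 alternative analyses. Its values in control mice at ZT8 were 24.2, 44.8, 45.3, 52.4 and 54.0 CPM, and in cKOt mice 24.9, 26.3, 27.2, 28.6 and 31.8 CPM. At ZT16 they were 71.2, 76.8, 78.2, 80.7 and 102 CPM in control and 68.5, 69.5, 75.7, 89.4 and 93.3 CPM in cKOt mice. The fitted difference was −0.64 ± 0.16 log2 units (SE) at ZT8 and −0.06 ± 0.15 at ZT16. Its amplitude was 0.83 ± 0.13 in control and 1.44 ± 0.13 in cKOt mice.

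The median of the fitted chaperone differences was larger in size from ZT0 to ZT12 than at ZT16 and ZT20. It was −0.31, −0.24, −0.38 and −0.27 log2 units at ZT0, ZT4, ZT8 and ZT12, and −0.11 and −0.12 at ZT16 and ZT20. Single chaperones departed from this order, among them Hspa13, Dnajc3 and Calr. Over all genes the medians at the 6 times lay between 0.003 and 0.02. The 24 h amplitude was larger in cKOt than in control mice for 10 of the 12 chaperones and for 30 of the 49 members. The share of all genes with a larger amplitude in cKOt mice was not computed. Median amplitudes over all genes were 0.20 in control and 0.19 in cKOt mice. Among chaperones only Manf had its 24 h component called different, and this call did not hold in most alternatives. Whether the contrast of the fitted differences between times differs from that of other genes was not tested. No chaperone had a genotype difference called to vary over the 6 times (interaction, called for 3.08% of all genes). Plasma cell marker sums had group medians of 206 to 357 CPM in control and 151 to 227 CPM in cKOt mice, and their part in the chaperone differences was not tested.

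**Figure D3:**
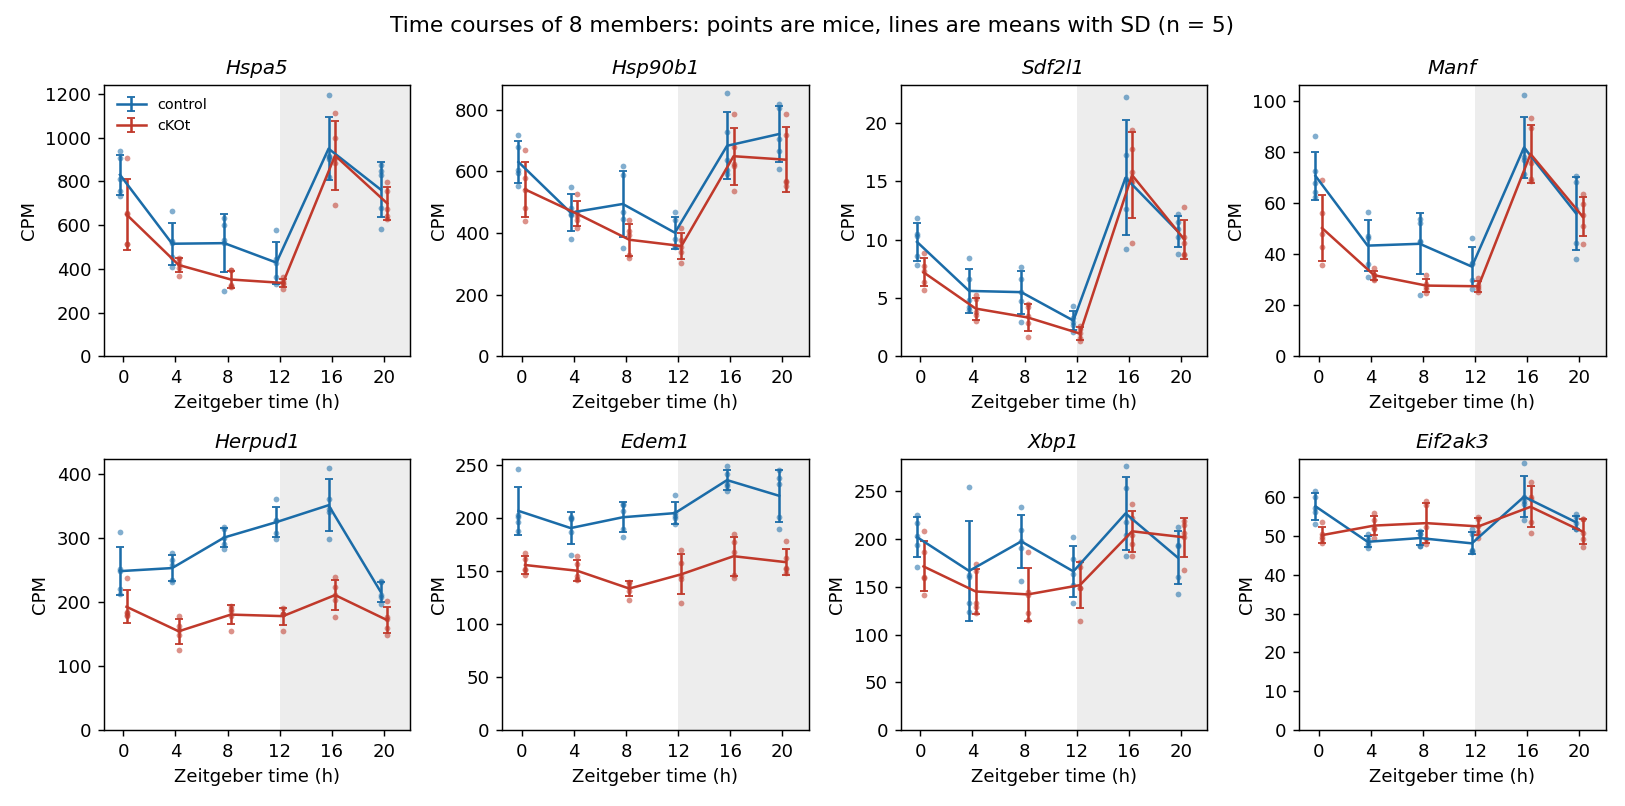
CPM (y axis) against zeitgeber time (x axis, grey from lights off) for 8 members in control (blue) and cKOt mice (red); points are mice, lines are means with SD, n = 5. The chaperones rise between ZT12 and ZT16 in both genotypes, Herpud1 and Edem1 run lower in cKOt mice, and Eif2ak3 has its lowest control means where cKOt means are slightly higher.

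Protein disulfide isomerases, which form and rearrange disulfide bonds, were lower in 4 of 5 cases, against 23.2% of all genes. P4hb, the founding member and the most abundant of the 49 genes per length of transcript (265 CPM per kb), had the largest difference (−0.21 ± 0.02 log2 units, SE, adjusted p = 2.23e-11). At ZT16 it stood at 827, 837, 907, 912 and 971 CPM in control mice and at 700, 741, 744, 756 and 814 CPM in cKOt mice, without overlap. Its 24 h component was called in control mice (0.21 ± 0.04, adjusted p = 7.53e-04) and not in cKOt mice (0.09 ± 0.04, adjusted p = 0.283), and the difference was not called (adjusted p = 0.502). Pdia6, the exception, differed by −0.04 ± 0.03 (adjusted p = 0.333) and had the largest amplitude of the group, 0.62 ± 0.06 in control and 0.64 ± 0.06 in cKOt mice. Its 5 control values were 124 to 147 CPM at ZT12 and 198 to 254 CPM at ZT16, and those of cKOt mice were 132 to 138 and 187 to 262 CPM. Pdia3, Pdia4 and Pdia5 differed by −0.13, −0.12 and −0.08 log2 units and were called for a 24 h component in both genotypes.

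Among genes of ER-associated degradation, 7 of 9 were lower in cKOt mice, against 23.2% of all genes. Herpud1, a membrane protein that assembles the HRD1 ubiquitin ligase complex, stood in control mice at 300, 308, 327, 329 and 362 CPM at ZT12 and in cKOt mice at 155, 182, 182, 182 and 191 CPM. The genotypes did not overlap at ZT4, ZT8, ZT12 and ZT16, whereas they overlapped at ZT0 and ZT20. At ZT20 the control values were 197, 209, 212, 231 and 233 CPM and the cKOt values 148, 160, 174, 176 and 202 CPM. The mean difference was −0.62 ± 0.04 log2 units (SE, adjusted p = 1.70e-21), with fitted differences between −0.32 ± 0.09 at ZT20 and −0.85 ± 0.09 at ZT12.

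Herpud1 was also the member with the smallest adjusted p for a difference of rhythm. Its 24 h component peaked at ZT12.0 ± 0.5 h (SE) in control mice with an amplitude of 0.59 ± 0.07, and at ZT16.4 ± 1.2 h with 0.23 ± 0.07 in cKOt mice. The difference of the 24 h component was called (adjusted p = 9.49e-04; 5.29% of all genes were called), as was the interaction over the 6 times (adjusted p = 0.0081). The former was called in all 15 alternative analyses, with adjusted p between 9.73e-05 and 0.0128 by the test of each alternative, and the latter in 13 of them. Without replicate 1 or replicate 2 of every group the interaction was not called (adjusted p = 0.0754 and 0.0597).

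**Figure D4:**
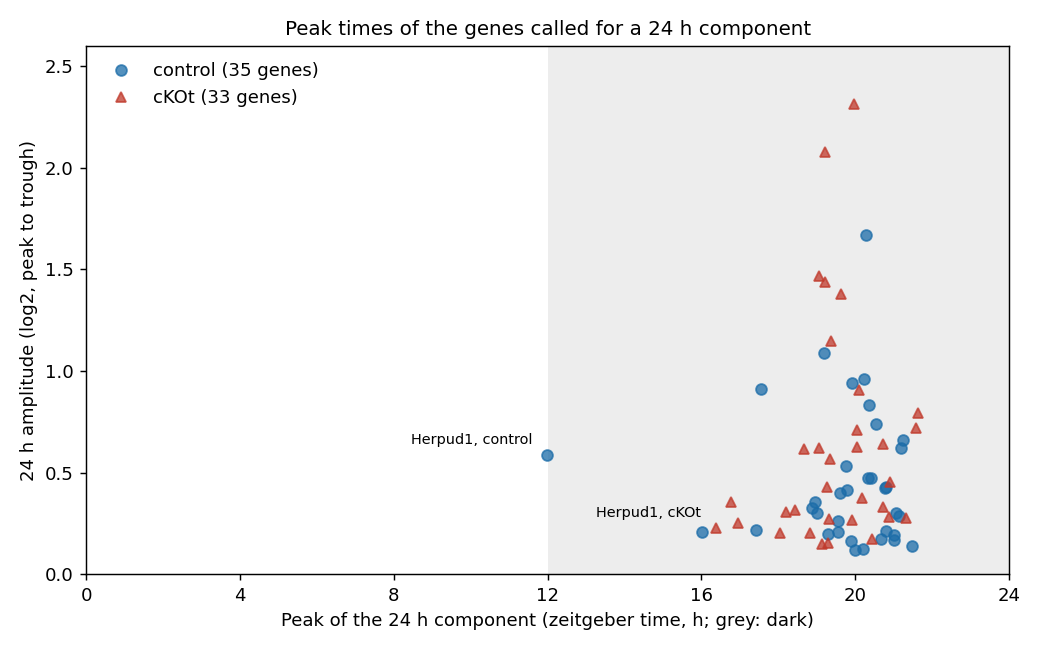
Peak time of the 24 h component (x axis, zeitgeber time, grey in the dark) against its amplitude (y axis, log2 from peak to trough) for the 35 members called in control mice (blue circles) and the 33 called in cKOt mice (red triangles). All points but that of Herpud1 in control mice, at ZT12.0, lie between ZT16 and ZT22.

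Edem1, a lectin that extracts misfolded glycoproteins for degradation, was lower in cKOt mice at every time without overlap of the genotypes. Its control values were 188, 196, 200, 203 and 246 CPM at ZT0 and 182, 190, 207, 212 and 213 CPM at ZT8. Its cKOt values were 147, 151, 152, 162 and 167 CPM at ZT0 and 123, 131, 135, 139 and 140 CPM at ZT8. The mean difference was −0.48 ± 0.02 log2 units (SE, adjusted p = 2.45e-25), and the 24 h amplitudes were 0.22 ± 0.05 and 0.27 ± 0.05.

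Derl3, a derlin of the retrotranslocation machinery, had the largest mean difference, −0.83 ± 0.18 log2 units (adjusted p = 1.07e-04), but rested on few reads, with 3 to 80 counts and 0.149 to 4.17 CPM per kidney. At ZT8 its values were 0.583, 1.31, 1.51, 1.89 and 2.05 CPM in control and 0.257, 0.266, 0.323, 0.593 and 0.711 CPM in cKOt mice, which overlapped. The ubiquitin ligase Syvn1 (HRD1), its partner Sel1l, Derl1 and Derl2 differed by −0.18, −0.15, −0.11 and −0.16 log2 units and were all called lower. Edem2 (−0.05, adjusted p = 0.104) and Selenos (−0.05, adjusted p = 0.199) were not called. Syvn1, Sel1l, Derl2 and Derl3 were called for a 24 h component in both genotypes, with control amplitudes of 0.53, 0.36, 0.30 and 0.91.

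The 3 UPR sensors were not called different in mean level. IRE1 (Ern1), PERK (Eif2ak3) and Atf6 differed by 0.01 ± 0.03, 0.01 ± 0.02 and −0.02 ± 0.02 log2 units (SE, adjusted p = 0.759, 0.865 and 0.472). Ern1 and Atf6 had no 24 h component called in either genotype, and their group means spanned 40.3 to 45.2 CPM and 92.0 to 99.5 CPM. Eif2ak3 had one in control mice (0.26 ± 0.05, adjusted p = 4.81e-05) and not in cKOt mice (0.11 ± 0.05, adjusted p = 0.149). The difference was called for its 24 h component (adjusted p = 0.00817) and for the interaction (adjusted p = 0.0145). The former was lost in 2 of 15 alternatives, without replicate 1 or 5 (adjusted p = 0.154 and 0.0708).

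Eif2ak3 values at ZT0 were 52.9, 56.0, 57.2, 60.0 and 61.6 CPM in control and 48.2, 49.1, 49.6, 50.4 and 53.5 CPM in cKOt mice. At ZT12 they were 45.7, 46.0, 46.3, 50.5 and 51.7 CPM in control and 49.4, 51.0, 52.6, 54.2 and 54.9 CPM in cKOt mice. Mice of both genotypes overlapped at each time, with fitted differences of −0.20 ± 0.06 at ZT0 and 0.13 ± 0.06 at ZT12. The interaction was lost in 4 of 15 alternatives: without replicates 1, 4 or 5 (adjusted p = 0.151, 0.0627 and 0.118) and with library batch in place of the factors (adjusted p = 0.0673).

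Of the downstream factors, Xbp1, Atf4 and Ddit3 were lower in cKOt mice. Xbp1, whose messenger is spliced by IRE1, differed by −0.17 ± 0.06 log2 units (SE, adjusted p = 0.0122), and gene counts do not separate spliced from unspliced messengers. This call was lost without replicate 2 or 5 (adjusted p = 0.0842 and 0.0684). At ZT8 its values were 157, 190, 198, 210 and 233 CPM in control and 115, 123, 141, 144 and 187 CPM in cKOt mice, which overlapped. The 24 h component of Xbp1 was called in cKOt mice (0.61 ± 0.12, adjusted p = 2.32e-04) and not in control mice (0.16 ± 0.12, adjusted p = 0.556), but the difference between them was not called (adjusted p = 0.228).

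Atf4, the factor translated when PERK phosphorylates eIF2α, was highest at ZT0 in both genotypes. Its ZT0 values were 89.4, 92.1, 92.4, 93.2 and 94.5 CPM in control and 77.1, 77.4, 79.0, 83.5 and 85.1 CPM in cKOt mice, without overlap. Its mean difference was −0.11 ± 0.03 log2 units (adjusted p = 0.00394), which was lost without replicate 1 (adjusted p = 0.0527). Ddit3 (CHOP), a pro-apoptotic target of ATF4, differed by −0.43 ± 0.09 (adjusted p = 1.55e-04). It stood at 5.28, 7.14, 7.26, 8.26 and 18.5 CPM in control mice and at 3.81, 4.38, 4.59, 4.94 and 5.81 CPM in cKOt mice at ZT12, where the lowest control mouse was below the highest cKOt mouse. A second, short Ensembl gene covers 6.13% of its exons and held 0 counts. Ppp1r15a (GADD34), which brings the phosphatase to eIF2α, differed by 0.01 ± 0.05 (adjusted p = 0.888) and was called for a 24 h component in neither genotype.

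The translocon, oligosaccharyltransferase and signal peptidase genes had small differences and amplitudes. Of these 16 genes, 3 were called higher in cKOt mice, the signal sequence receptor subunits Ssr1 (0.04 ± 0.02 log2 units, SE, adjusted p = 0.028) and Ssr2 (0.08 ± 0.02, adjusted p = 0.00283) and the signal peptidase subunit Spcs3 (0.06 ± 0.02, adjusted p = 0.00474). Called lower were the channel subunits Sec61a1 (−0.06 ± 0.02) and Sec61b (−0.16 ± 0.04), the translocating chain-associating protein Tram1 (−0.11 ± 0.02), the oligosaccharyltransferase subunit Rpn2 (−0.06 ± 0.02, adjusted p = 0.0408) and Spcs2 (−0.10 ± 0.02). The remaining 8, Sec61g, Ssr3, Ssr4, Stt3a, Rpn1, Ddost, Ostc and Spcs1, were not called. Shares over all genes were 26.8% higher and 23.2% lower. Rpn2 lost its call in 7 of 15 alternatives. Median 24 h amplitudes of the translocon, oligosaccharyltransferase and signal peptidase genes were 0.15, 0.17 and 0.17 in control and 0.15, 0.11 and 0.10 in cKOt mice, where the medians of all genes were 0.20 and 0.19.

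The largest 24 h amplitude in these complexes was that of Ostc, an accessory oligosaccharyltransferase subunit. Its control values were 27.1, 28.1, 30.0, 31.7 and 33.5 CPM at ZT12 and 37.2, 37.3, 41.4, 41.8 and 45.4 CPM at ZT16. Its cKOt values were 26.6, 28.8, 31.1, 33.6 and 35.8 CPM at ZT12 and 41.2, 41.3, 44.7, 45.4 and 46.3 CPM at ZT16. The times did not overlap in either genotype, and the amplitudes were 0.43 ± 0.07 and 0.57 ± 0.07 (adjusted p = 1.24e-05 and 3.13e-08). Sec61b had the largest 24 h amplitude (mean of both genotypes) among translocon genes called in a genotype, 0.22 ± 0.07 in control (adjusted p = 0.0527) and 0.28 ± 0.07 in cKOt mice (adjusted p = 0.0108). Spcs2 had 0.21 ± 0.05 and 0.32 ± 0.05. The 10 members with no 24 h component called in either genotype were Derl1, Edem2, Ern1, Atf6, Ppp1r15a, Sec61g, Ssr4, Stt3a, Rpn2 and Spcs1.

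A 12 h component was called for 5 members in control mice, where 0.579% of all genes were called, and for 6 in cKOt mice, where 0.907% were called. In control mice these were Sdf2l1, Pdia5, Pdia6, Derl3 and Atf4, and in cKOt mice Hsp90b1, Calr, Canx, Dnajb9, Sdf2l1 and Pdia6, so that Sdf2l1 and Pdia6 were called in both (0.0901% of all genes) and 9 members in at least 1 genotype (1.4% of all genes). At an unadjusted p below 0.05 there were 26 members in control and 24 in cKOt mice, against 10.4% and 13.6% of all genes, and they included all 12 chaperones in control and 11 in cKOt mice. The maxima of the 12 h component of the chaperones lay between ZT2.23 and ZT6.24 in control and between ZT3.90 and ZT5.90 in cKOt mice, and again 12 h later. The 12 h component was called different between genotypes for 0 members by edgeR, limma-trend or DESeq2 (0.0129% of all genes by edgeR), and 1 member, Dnajb9, had an unadjusted p below 0.05 (5.08% of all genes).

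Sdf2l1 had a 12 h amplitude of 0.86 ± 0.19 log2 units in control (SE, adjusted p = 0.0333) and 1.22 ± 0.20 in cKOt mice (adjusted p = 0.00161). The control call held in 8 of 15 alternatives and the cKOt call in all 15. Pdia6 had 0.34 ± 0.06 and 0.32 ± 0.06 (adjusted p = 0.0139 and 0.016), calls that held in 11 and 10 of 15 alternatives. Derl3, with few reads, had 1.91 ± 0.36 and 1.14 ± 0.41 (adjusted p = 0.00952 and 0.272 by edgeR). Its control call held in 12 of 15 alternatives. Dnajb9, a BiP co-chaperone and IRE1 regulator, had 0.29 ± 0.07 and 0.37 ± 0.07 (adjusted p = 0.0532 and 0.00447). With 6 times over a single day, a separate 12 h rhythm cannot be told apart from a 24 h course that is not a sinusoid, such as the step from ZT12 to ZT16 of the chaperones. All 12 h calls but that of Sdf2l1 in cKOt mice depended on the analysis. The counts were 2 and 2 with library batch in place of the factors of unwanted variation, and 10 in cKOt mice with DESeq2. Over all genes they were 31 and 19 with library batch, and 252 in cKOt mice with DESeq2.

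**Figure D5:**
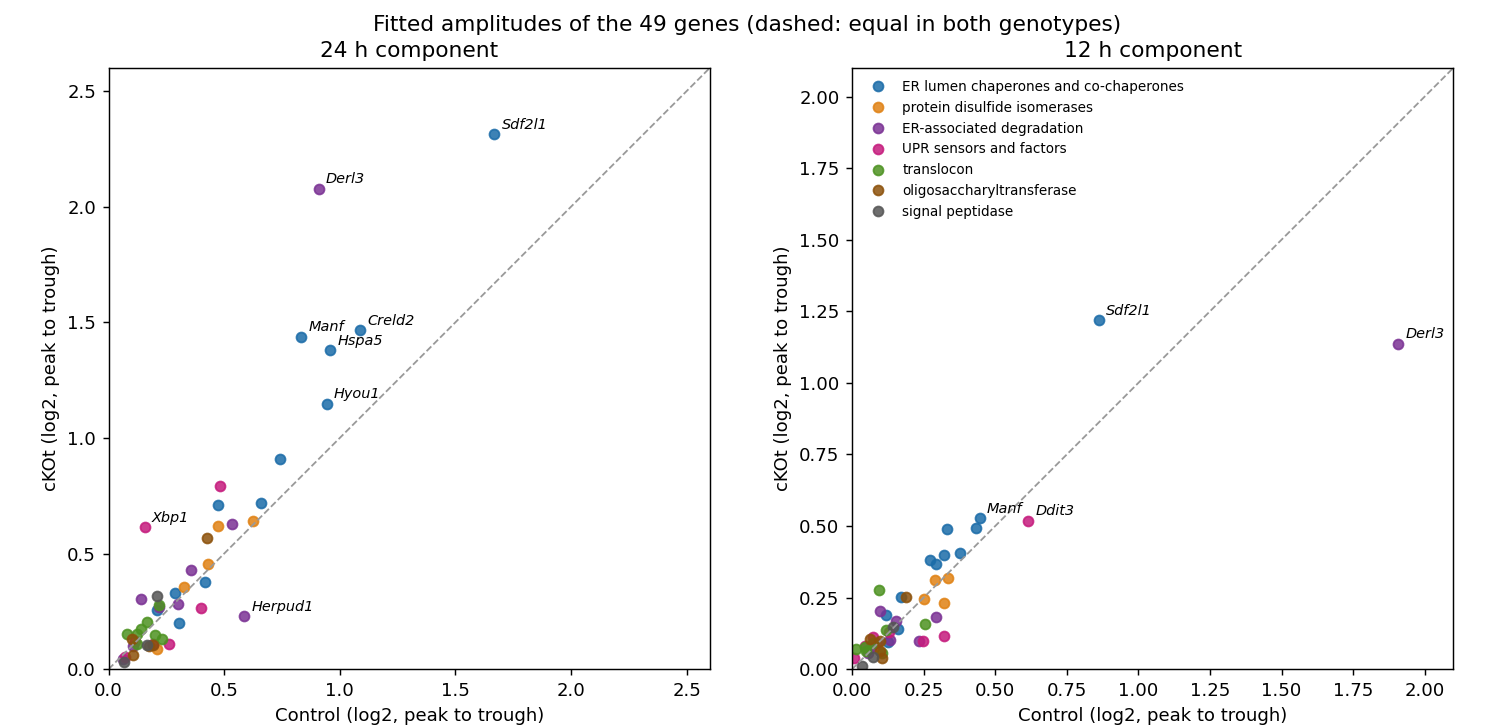
Fitted amplitudes (log2, peak to trough) of the 24 h (left) and 12 h component (right) of the 49 genes in control (x axis) and cKOt mice (y axis), coloured by role; the dashed line marks equal amplitudes. Sdf2l1 is far out on both axes, Herpud1 lies below the line and Xbp1 above it for 24 h, and most translocon and signal peptidase genes lie near the origin.

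By model selection on the 24 h period (models 1 to 5 of dryR, weight at least 0.65), 32 members were assigned the same rhythm in both genotypes, against 25.2% of all genes, 8 were assigned no rhythm, against 34%, and 6 were not assigned. A loss of rhythm in cKOt mice was assigned to Herpud1 and Eif2ak3 (6.25% of all genes) and a gain to Xbp1 (3.42%). An altered rhythm was assigned to 0 members (2.37%). This method gives no p. Herpud1 was assigned a loss although its smaller 24 h component in cKOt mice was called by edgeR (adjusted p = 0.0359).

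Other genes of the same pathway were called in both directions, and the shares to read them against are 26.8% higher and 23.2% lower over all genes. Of 30 further folding and disulfide enzymes tested, 11 were higher and 8 lower in cKOt mice (median log2 difference 0.03), with Txndc11, a thioredoxin-domain protein, the largest (−0.30 ± 0.03, SE, adjusted p = 1.82e-13). Of 22 further degradation genes, 2 were higher and 10 lower (median −0.05), with Nploc4, a cofactor of the VCP segregase, at −0.26 ± 0.02. Of 17 further translocation and membrane insertion genes, 1 was higher and 7 were lower (median −0.06), and Srp72 of the signal recognition particle, at −0.12 ± 0.01, was the largest. Of 7 further oligosaccharyltransferase genes, 1 was higher and 3 were lower (median −0.05), and the largest was Tusc3 (0.25 ± 0.02). Of 14 further UPR regulators, 4 were higher and 3 lower (median 0.01), with the transcription factor Creb3l1 at 0.46 ± 0.07 (adjusted p = 3.68e-07). A 24 h component was called in control and cKOt mice for 10 and 12 of the 30 folding enzymes. The counts were 12 and 8 of 22 for degradation and 10 and 5 of 17 for translocation and insertion. They were 2 and 3 of 7 for oligosaccharyltransferase genes and 7 and 7 of 14 for UPR regulators. Over all genes the shares were 34.8% and 30.3%. The interaction was called for 3 genes of these lists: Fkbp14 (adjusted p = 0.0354), Dnajc10 (0.04) and Ppp1r15b (0.00251), named after their values were seen, against 3.08% of all genes.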

How the data were processed

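RNA from kidneys of 60 mice was sequenced by the study as single reads of stranded mRNA libraries. Per the labels and the study's notes, the authors trimmed reads with cutadapt 1.8, aligned them with STAR 2.5.3a and deposited 1 table of raw counts per Ensembl gene and mouse, made with HTSeq 0.9.1; the strand setting of the counting is not given in the sources used here. Counts of a stranded library still leave reads in overlapping exons ambiguous, which touches Hsp90b1 (5.38% of exon length) and Ddit3 (6.13%).

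Genes that reached 1 CPM in any sample (15546) were normalised by TMM. edgeR 4.0.16 quasi-likelihood tests (R 4.3.3) were fitted to all 60 samples with 12 genotype-by-time groups and 2 RUVs factors, rewritten here from replicate deviations. Contrasts were the mean difference, the interaction, and cosine and sine of 24 h and 12 h, with Benjamini-Hochberg adjustment over all retained genes. Printed CPM values are TMM-scaled without RUVs correction, and the tests were checked on simulated data. The dryR model choice was rewritten with BIC weights on RUVs-corrected log CPM. Alternatives used limma-trend 3.58.1, DESeq2 1.42.0, other filters, factors, size factors and left-out mice.

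The members and lists were chosen with earlier results of these data known. Named genes were, per role, those of largest 24 h amplitude, mean difference and 12 h amplitude among those called, plus Hspa5, Ern1, Eif2ak3, Atf6, Xbp1, Atf4 and Ddit3. Herpud1, Edem1, Manf, Hsp90b1, Calr and Dnajb9 were added after their values were seen. In further lists the rule gave those of largest mean difference and 24 h amplitude. Promoter sequences were those of RefSeq, and 10 members had no window: Hyou1, Hspa13, Manf, Derl1, Atf6, Sec61a1, Ssr2, Tram1, Ostc and Spcs3. Lists had 3 symbols that matched no gene of 233. Residuals after RUVs correction gave no sign that replicate numbers pair mice (mean correlation 0.001 over 330 same-number pairs, −0.00025 over 1320 others). That correction could itself have removed variation shared by such mice. Library batch (6 batches of 9 to 12 samples) and a mark for removal on 1 cKOt ZT16 sample were read from the study's sample sheet and used in alternatives only.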

Additional observations from a re-analysis of the deposited data

Results flagged for a closer look

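Within groups of 5 mice, the lowest or highest mouse stood apart from the other 4 (gap over range above 0.71) in 13 of 264 groups of 22 named genes, and chance flags about 1 in 20 groups. Among chaperones, Creld2 had a low cKOt mouse at ZT8 (11.8 CPM, others 17.2 to 19.2), a high one at ZT12 (21.4 CPM, others 14.4 to 15.9) and a low one at ZT20 (25.7 CPM, others 31.4 to 33.2). Hspa5 had a high control mouse at ZT16 (1196 CPM, others 821 to 918), Calr a high cKOt mouse at ZT16 (635.7 CPM, others 500.9 to 528) and Dnajb9 a high cKOt mouse at ZT0 (65.2 CPM, others 40.3 to 47.3). In degradation, Herpud1 had a high cKOt mouse at ZT0 (238.5 CPM, others 178 to 185) and a low one at ZT12 (155 CPM, others 182 to 191), Edem1 a high control mouse at ZT0 (246 CPM, others 188 to 203) and Derl3 a high cKOt mouse at ZT20 (1.8 CPM, others 0.66 to 0.953). Ddit3 had a high control mouse at ZT12 (18.5 CPM, others 5.28 to 8.26) and a high cKOt mouse at ZT0 (16.6 CPM, others 9.55 to 11.3). Spcs2 had a high cKOt mouse at ZT4 (67.4 CPM, others 61.4 to 62.0).

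The genotype difference varied between time points for Herpud1 (adjusted p = 0.0081) and Eif2ak3 (adjusted p = 0.0145) in edgeR's interaction test. Herpud1 was lower in cKOt mice at each time, and Eif2ak3 had fitted differences below 0 at ZT0, ZT16 and ZT20 and above 0 at ZT4, ZT8 and ZT12.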

How the results depend on the processing

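The counts of chaperones held: 11 or 12 of 12 were lower in cKOt mice and 10 to 12 had a 24 h component in both genotypes under 15 alternatives, chosen for these counts after seeing the data. Of 330 mean differences of named genes under alternatives, 304 kept direction and call and 10 lost the call (Rpn2, Xbp1 and Atf4). A further 16 changed sign, all in genes not called: Ostc with limma (0.0016), no factors (0.0098), batch (0.011), the replicate block (7.8e-05), without the marked sample (0.0032) and without a replicate (−0.055 to 0.040), Eif2ak3 with DESeq2 (−0.0049), DESeq2 size factors (−0.0050), without the marked sample (−0.0019) and without a replicate (−0.012 to 0.021), Ern1 with batch (−0.0023) and without a replicate (−0.0061 to 0.030), and Atf6 without a replicate (−0.029 to 0.0040). Fold or amplitude above 1.2 left 10 members lower, 0 higher and 23 with a 24 h component in control mice. At this fold 8.16% of all genes were lower and 7.89% higher, and the all-gene share for the amplitude was not computed. A model weight of 0.8 left 2 members without rhythm and 1 with loss. Without factors 1 member had a 12 h component in cKOt mice, and with DESeq2 10. Of all 15546 genes, 141 had one in cKOt mice in the main analysis, 12 without factors and 252 with DESeq2. With batch in place of factors, 12 h counts were 2 in control and 2 in cKOt mice, 1 member had an interaction, 5 had no rhythm and 1 a loss. Over all genes the 12 h counts with batch were 31 and 19, against 90 and 141 in the main analysis. Leaving out 1 replicate number gave 0 to 3 members higher (0 without replicate 3), 1 to 2 with an interaction, 1 to 3 with a differing 24 h component, 12 h counts of 0 to 5 (0 without replicate 1) in control and 1 to 10 (10 without replicate 3) in cKOt mice, 3 to 8 with no rhythm, 0 to 3 with a loss, 0 to 2 with a gain and 0 to 1 with an altered rhythm. Over all genes, 9 had a 12 h component in control mice without replicate 1, and 57 in cKOt mice without replicate 3. Without replicate 3, 3845 of all genes were higher. Counts over all genes of interactions, differing 24 h components and models were not computed for the alternatives. With the replicate number as a block, 3 members were higher, 32 lower, 34 and 33 had a 24 h component, 6 and 6 a 12 h component and 2 an interaction. With this block, 4144 of all 15546 genes were higher and 3590 lower. A 24 h component was called for 5397 and 4686 of all genes, and a 12 h component for 103 and 145. Manf then lost its 24 h difference (adjusted p = 0.0556, DESeq2 0.0363). No sign that the numbers pair mice was seen. In the other cases the cause was not tested. Depth limits Derl3 and Sec61g most, at means of 1.04 and 2.39 CPM.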

Other observations

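Heat shock genes of the cytosol and mitochondria, which fold proteins outside the ER, were mostly lower in cKOt mice and had their 24 h peaks in the dark. Of 13 tested, 11 were lower in cKOt mice and 0 higher (median log2 difference −0.22; over all genes 23.2% were lower), and 11 in control and 10 in cKOt mice had a 24 h component, all with peaks in the dark. Over all genes 34.8% and 30.3% had a 24 h component, and 18.3% and 15.2% had one with a peak in the dark. A 12 h component was called for 4 of the 13 in control and 0 in cKOt mice, against 0.579% and 0.907% of all genes. Likeness to the ER chaperones was not tested. Hsph1, an HSP110 cochaperone, averaged 233 and 150 CPM in control and cKOt kidneys (−0.66 ± 0.07, SE, adjusted p = 1.10e-11). Hsp90aa1, the inducible cytosolic HSP90, averaged 252 and 186 CPM (−0.45 ± 0.05) and had 24 h amplitudes of 0.84 and 1.01 log2 units, with peaks at ZT20.0 and ZT19.6. The list shares no gene with the 49 members.

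Of 21 tested targets of ATF4 and CHOP, 9 were lower and 2 higher in cKOt mice (median −0.12), against 23.2% lower and 26.8% higher over all genes. Stc2, a secreted glycoprotein, was higher (3.98 CPM in cKOt against 2.16 CPM in control kidneys, 0.89 ± 0.09, adjusted p = 6.96e-13), and asparagine synthetase (Asns), named after its value was seen, was lower (4.56 against 6.70 CPM, −0.56 ± 0.07, adjusted p = 6.43e-09).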
